A study of Mus musculus with 18 samples.

Results

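The DNA replication and S phase genes are 43 genes whose proteins license origins, unwind and copy DNA, join the copied strands, supply nucleotides or rebuild chromatin behind the fork. They were taken by symbol from the raw-count tables of female and of male libraries, which list 25965 rows each. All 43 had a row in both tables, and all 43 passed the filter on low counts in each of the 4 comparisons below. The libraries were made from mouse bone marrow cells sorted as CD45.2+ B220+ Mac1-, a gate for B cells, and the question was what loss of the remaining Smchd1 allele does to these genes. SMCHD1 is a chromatin protein known for gene silencing, including on the inactive X chromosome. All animals were C57BL/6 mice of 12 to 16 months with a Vav-Cre transgene on 1 allele, whose promoter drives Cre throughout the blood lineages. Animals called del/del here were Smchd1[del/del] Vav.Cre[T/+], with 5 female and 4 male libraries. The animals written here as het were Smchd1[del/+] Vav.Cre[T/+], with 5 female and 4 male libraries. The het animals thus also carried a deleted allele and the Cre, and animals with 2 intact Smchd1 alleles were not analysed here. Each library has an animal number of its own in the labels, so the spread between libraries is a spread between animals. Library numbers below only name an animal within its group and pair none.

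Replication is prepared when the origin recognition complex, CDC6 and CDT1 load the ring-shaped MCM helicase on DNA. In S phase CDC45 and the GINS complex turn that ring into the active helicase. Polymerases alpha, delta and epsilon copy the strands, and ribonucleotide reductase supplies building blocks. In bone marrow, replication in the B lineage is known mainly from large pro-B and pre-B cells, whereas small pre-B and resting B cells seldom divide. Many of these genes are textbook targets of E2F transcription factors at the entry into S phase.

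Levels are CPM, gene counts divided by library size after TMM scaling within the table of a sex, and a log2 fold change is del/del over het. Total counts were 19133963 to 25250778 in female del/del libraries, against 11650350 to 29405395 in female het libraries. They were 19748770 to 22614546 in male del/del libraries, against 9788112 to 19958091 in male het libraries. The B cell gene Cd79a stood at 1037 CPM or more in every library, and the T cell gene Cd3e at 7.42 CPM or less. The neutrophil gene Elane reached 95.1 CPM, and Siglech, a marker of plasmacytoid dendritic cells, which can carry B220, reached 452 CPM. Smchd1 itself had 140.3, 138, 130.2, 173.5 and 128 CPM in female del/del libraries, against 271, 235, 265, 240.1 and 240.2 CPM in female het libraries. It had 162, 176, 168 and 197 CPM in male del/del libraries, against 292, 274, 286 and 324 CPM in male het libraries. In both sexes every del/del library lay below every het library, and Smchd1 fell by 0.82 on the log2 scale in females (SE 0.092, adjusted p 0.00119) and by 0.74 in males (SE 0.082, adjusted p 0.00888) in edgeR's quasi-likelihood test. The male call was lost without male del/del library 1 (log2 fold change -0.70, edgeR adjusted p 0.054), without male del/del library 3 (-0.72, 0.0538) and without male het library 1 (-0.75, 0.0525), with fold changes close to that of all 8 male libraries. It was also lost with the plasmacytoid dendritic cell level as a covariate (-0.65, edgeR adjusted p 0.163). Counts cover the whole gene, so they do not give the share of cells that carry the deletion.

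RefSeq promoter windows of 250 bases before to 50 bases after the transcription start (build GRCm38.p6) were found for 35 of the 43 genes; Ccne2, Gins1, Gins2, Gins4, Mcm4, Pole, Prim2 and Rfc2 had none in the table used. Both strands were searched for the E2F-type letters TTTCCCGC, TTTGGCGC, TTTCGCGC and TTTGCCGC. Such letters were found in 12 of the 35 genes (34.3%), against 704 of all 27025 genes in the table (2.6%). The letters CCAAT were found in 21 of the 35 genes (60%), against 41.1% of all genes. The letters TTTGAA or TTCGAA of the cell cycle homology region, known from genes of mitosis, were found in 7 of the 35 (20%), against 21.7% of all genes. Below are the 170 bases before the RefSeq start of 5 genes of origin licensing and the MCM ring. The bases run 5′ to 3′ on the gene's own strand. These genes are shown because their E2F-type letters, printed in capitals, lie upstream of the RefSeq start. They are Cdc6 (chr11:98907981-98908150, plus strand), Orc1 (chr4:108579284-108579453, plus strand), Mcm5 (chr8:75109339-75109508, plus strand), Mcm6 (chr1:128359706-128359875, minus strand) and Mcm7 (chr5:138171884-138172053, minus strand).
Cdc6: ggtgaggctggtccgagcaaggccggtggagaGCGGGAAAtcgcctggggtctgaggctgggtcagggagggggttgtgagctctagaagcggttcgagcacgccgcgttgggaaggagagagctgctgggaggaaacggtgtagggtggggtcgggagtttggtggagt
Orc1: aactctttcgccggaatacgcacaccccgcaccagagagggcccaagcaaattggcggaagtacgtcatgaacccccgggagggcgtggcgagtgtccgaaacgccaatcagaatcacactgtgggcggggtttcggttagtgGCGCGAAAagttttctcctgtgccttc
Mcm5: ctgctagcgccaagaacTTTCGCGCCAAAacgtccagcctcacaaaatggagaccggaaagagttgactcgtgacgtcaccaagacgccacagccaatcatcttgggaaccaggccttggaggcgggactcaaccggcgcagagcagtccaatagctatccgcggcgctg
Mcm6: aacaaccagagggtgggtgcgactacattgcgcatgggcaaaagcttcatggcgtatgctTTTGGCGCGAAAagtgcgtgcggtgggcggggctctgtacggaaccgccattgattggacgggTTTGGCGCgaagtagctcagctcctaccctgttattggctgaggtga
Mcm7: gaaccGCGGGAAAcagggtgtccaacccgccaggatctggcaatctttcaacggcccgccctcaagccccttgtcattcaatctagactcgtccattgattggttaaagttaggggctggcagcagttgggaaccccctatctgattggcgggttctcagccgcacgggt
In Mcm5 the capitals join matches that overlap on opposite strands, at -153 to -146 and -149 to -142 from the start. Mcm6 has such a joined pair at -110 to -99 and a further match at -47 to -40. By the gene spans that came with the counts, the capitals of Cdc6, Orc1 and Mcm7 lie inside the gene. Those spans begin farther upstream than the RefSeq start. The capitals of Mcm5 and Mcm6 lie upstream of the gene span. A match is a description of letters and not a site of binding, and no binding was measured in these libraries.

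None of the 43 genes was called in del/del against het B cells of either sex. Nearly all of them had slightly negative fold changes, with a median log2 fold change of -0.19 in females and -0.098 in males. In each sex the mean level of these genes lay below every het library in some del/del libraries and not in others. In females 42 of the 43 values were negative, with Pold1 the exception at 0.0028, against a background of 51.2% negative values among the 13501 genes tested, whose median was -0.0044. In males 38 of 43 were negative, against a background of 49.4% among 13413 genes, whose median was 0.0013. Cdt1, Rfc5, Tk1, Gins4 and Rfc2 were the positive ones, at 0.13, 0.13, 0.057, 0.055 and 0.037. Genes of one program move together from library to library, so such counts of signs are not 43 separate observations.

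The call rule was an adjusted p under 0.05 in edgeR's quasi-likelihood test, with Benjamini-Hochberg adjustment over all genes of the fit. In females it called 0 of the 43 genes, against 0.252% of all genes tested, and 0 of 43 had an unadjusted p under 0.05, against 4.30%. In males it called 0 of 43, against 0.119%, and 0 of 43 had an unadjusted p under 0.05, against 3.34%. With both sexes in a single fit and sex as a covariate it called 0 of 43, against 0.556% of 14017 genes. In that fit 42 of 43 values were negative, against 50.1%, the median was -0.15, and 1 gene, Cdc45, had an unadjusted p under 0.05, against 6.76%. DESeq2 and limma voom also called 0 of the 43 in each comparison, with at most 1 and at most 3 unadjusted p under 0.05. Those highest counts were over both sexes, against 6.98% of all genes in DESeq2 and 6.62% in limma voom. The smallest edgeR adjusted p among the 43 genes was 0.975 in females, 0.9998 in males and 0.615 over both sexes. Intervals of 2 SE on each side of a log2 fold change ran from a lowest bound of -0.68 (Cdc6) to a highest of 0.23 (Cdt1) in females and from -0.52 (Ccne2) to 0.37 (Orc1) in males, and values between such bounds remained possible for single genes. Single animals moved the medians: the female median was -0.10 without female del/del library 5 and -0.27 without female del/del library 2, and the male median was -0.032 without male del/del library 3 and -0.16 without male het library 3. The count of female genes with an unadjusted p under 0.05 was 10 without female del/del library 2, against 7.93% of all genes, 7 without del/del library 4, against 7.03%, and 3 without het library 1, against 5.94%, and it was 0 without any 1 of the other 7 libraries. In males it was at most 2 without any 1 library, the highest without male del/del library 1, against 3.69%. Over both sexes it was 0 to 13 without any 1 library, the highest without female del/del library 2, against 11.0%. With the nearest animal numbers as a block, pairs that the labels do not state, 17 female genes, against 7.5% of all genes, 5 male genes, against 6.5%, and 18 genes over both sexes, against 12.4%, had an unadjusted p under 0.05, and 0 were called. In RNA from sorted bulk cells, fewer cycling cells and less RNA per cycling cell cannot be told apart.

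**Figure D1:**
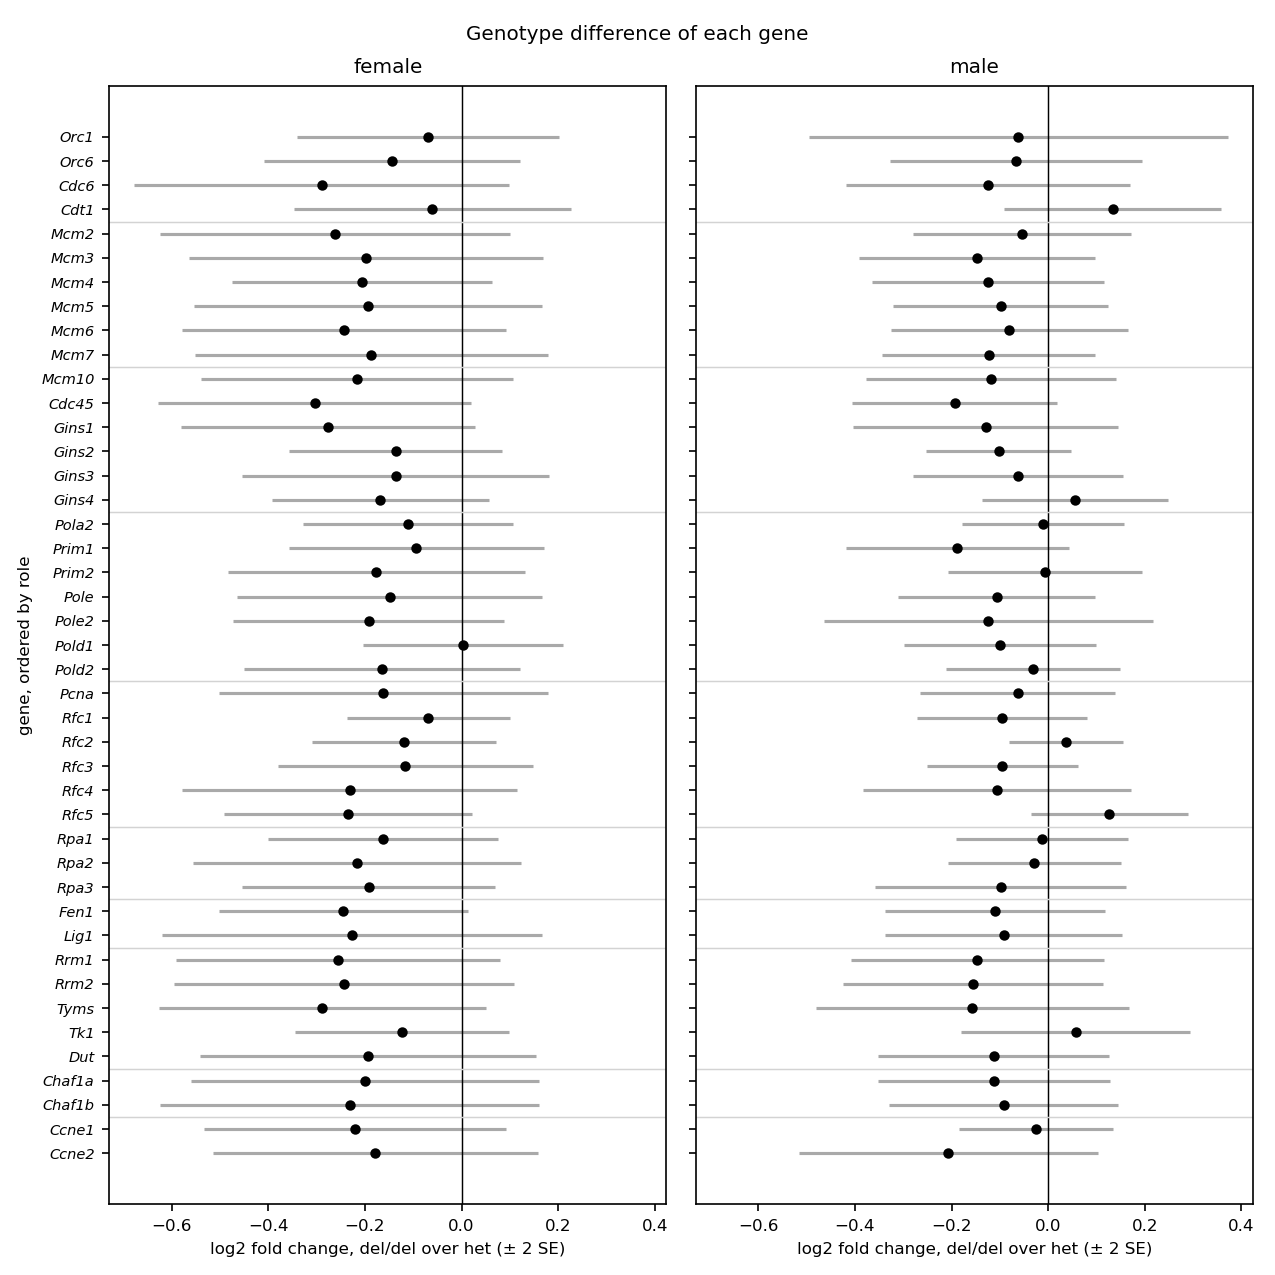
Log2 fold change of del/del over het (x axis) for each of the 43 genes (y axis, grouped by role), in females (left, 5 del/del and 5 het libraries) and males (right, 4 and 4). Points are edgeR estimates and bars are 2 SE to each side; 42 female and 38 male points lie left of 0, and every bar crosses 0.

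Origin licensing was represented by Orc1 and Orc6, subunits of the origin recognition complex, Cdc6, its ATPase partner, and Cdt1, the loading factor. Their median log2 fold change was -0.11 in females and -0.064 in males, with none called. Cdt1 (ENSMUSG00000006585, chr8:122568015-122573128) was the most abundant of the 4 by CPM. Cdt1 had 58.5, 97.9, 76.4, 86.7 and 83.0 CPM in female del/del libraries, against 64.7, 86.0, 76.8, 104 and 88.7 CPM in female het libraries. It had 88.3, 117, 102 and 109 CPM in male del/del libraries, against 84.9, 113, 85.0 and 94.9 CPM in male het libraries. The groups overlapped in both sexes and the sign differed, at -0.060 (SE 0.14) in females and 0.13 (SE 0.11) in males. Cdc6 (ENSMUSG00000017499, chr11:98907801-98923940) had the smallest p of the 4 over both sexes. Cdc6 had 29.8, 51.7, 44.9, 49.8 and 24.0 CPM in female del/del libraries, against 40.1, 45.7, 57.3, 54.0 and 47.6 CPM in female het libraries. It had 33.9, 29.2, 21.5 and 24.4 CPM in male del/del libraries, against 28.2, 34.2, 25.4 and 30.9 CPM in male het libraries. Female del/del libraries 1 and 5 lay below every female het library while libraries 2, 3 and 4 lay among them. The log2 fold change of Cdc6 was -0.29 (SE 0.19) in females, -0.12 (SE 0.15) in males and -0.22 (SE 0.13) over both, with an edgeR adjusted p of 0.801. Orc1 had the lowest level per kb of exonic length, which here is the union of all annotated exons of a gene. It was at 3.33 CPM per kb in female del/del libraries and 3.50 CPM per kb in female het libraries. Orc6 averaged 45.5 ± 9.23 CPM in female del/del libraries and 50.2 ± 4.50 CPM in female het libraries (SD, n = 5 each).

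The 6 subunits of the MCM helicase, Mcm2 to Mcm7, had fold changes close to each other. Their log2 fold changes ran from -0.26 (Mcm2) to -0.19 (Mcm7) in females and from -0.15 (Mcm3) to -0.054 (Mcm2) in males, with none called. Mcm6 (ENSMUSG00000026355, chr1:128331591-128359656) had the highest CPM of the 6. Mcm6 had 263, 399, 291, 415 and 220.5 CPM in female del/del libraries, against 301, 423, 374, 429.8 and 351 CPM in female het libraries. It had 269.9, 259, 201 and 244 CPM in male del/del libraries, against 245, 303, 212.1 and 269 CPM in male het libraries. Mcm6 was below every female het library in female del/del libraries 1, 3 and 5 and within the het range in libraries 2 and 4. Mcm4 (ENSMUSG00000022673, chr16:15623897-15637400) had the smallest p of the 6 over both sexes. Mcm4 had 187, 248, 199, 250.4 and 149 CPM in female del/del libraries, against 204, 260.3, 248, 259 and 222 CPM in female het libraries. It had 172, 161, 127 and 156 CPM in male del/del libraries, against 162, 188.96, 137 and 184 CPM in male het libraries. Its log2 fold change was -0.21 (SE 0.13) in females, -0.12 (SE 0.12) in males and -0.17 (SE 0.094) over both, with an edgeR adjusted p of 0.800. Per kb of exonic length, female del/del means ran from 32.1 CPM per kb for Mcm2 to 71.8 CPM per kb for Mcm5. In female het libraries these were 38.5 and 82.2 CPM per kb. The exonic length was 6956 bases for Mcm2 and 3993 bases for Mcm5. By CPM alone the female del/del means were 223 for Mcm2 and 287 for Mcm5. The distance per kb thus depends on the lengths used and does not rank the subunits.

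The factors that activate the helicase include Cdc45 and the GINS subunits Gins1 to Gins4, which complete the active enzyme, and Mcm10, which helps start unwinding. Cdc45 (ENSMUSG00000000028, chr16:18780447-18811987) had the most negative female value of the 43 genes and the smallest p over both sexes. Cdc45 had 41.0, 70.5, 59.6, 70.6 and 39.3 CPM in female del/del libraries, against 59.2, 71.5, 72.2, 74.7 and 69.6 CPM in female het libraries. It had 39.9, 41.9, 33.9 and 30.5 CPM in male del/del libraries, against 45.9, 41.6, 39.0 and 41.0 CPM in male het libraries. For Cdc45, female del/del libraries 1 and 5 and male del/del libraries 3 and 4 lay below every het library of their sex, and the other del/del libraries did not. Its log2 fold change was -0.30 (SE 0.16) in females, -0.19 (SE 0.11) in males and -0.26 (SE 0.11) over both sexes, with an unadjusted p of 0.0240 and an edgeR adjusted p of 0.615. Gins2 (ENSMUSG00000031821, chr8:120578633-120589304) had the highest CPM of these 6 genes. Gins2 had 119.8, 170.9, 132, 166.5 and 129 CPM in female del/del libraries, against 139, 149, 159, 166.4 and 176 CPM in female het libraries. It had 112, 117, 112 and 106 CPM in male del/del libraries, against 124, 115, 134 and 108 CPM in male het libraries. The groups overlapped in each sex, and its value over both sexes was -0.12 (SE 0.068). Exons of Gse1 on the opposite strand cover 67.3% of the exonic length of Gins2, and no source used here says whether counting was by strand, so reads of the pair may be mixed. Mcm10, Gins1 and Gins3 had negative values in both sexes, and Gins4 was at -0.17 (SE 0.11) in females and 0.055 (SE 0.096) in males.

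**Figure D2:**
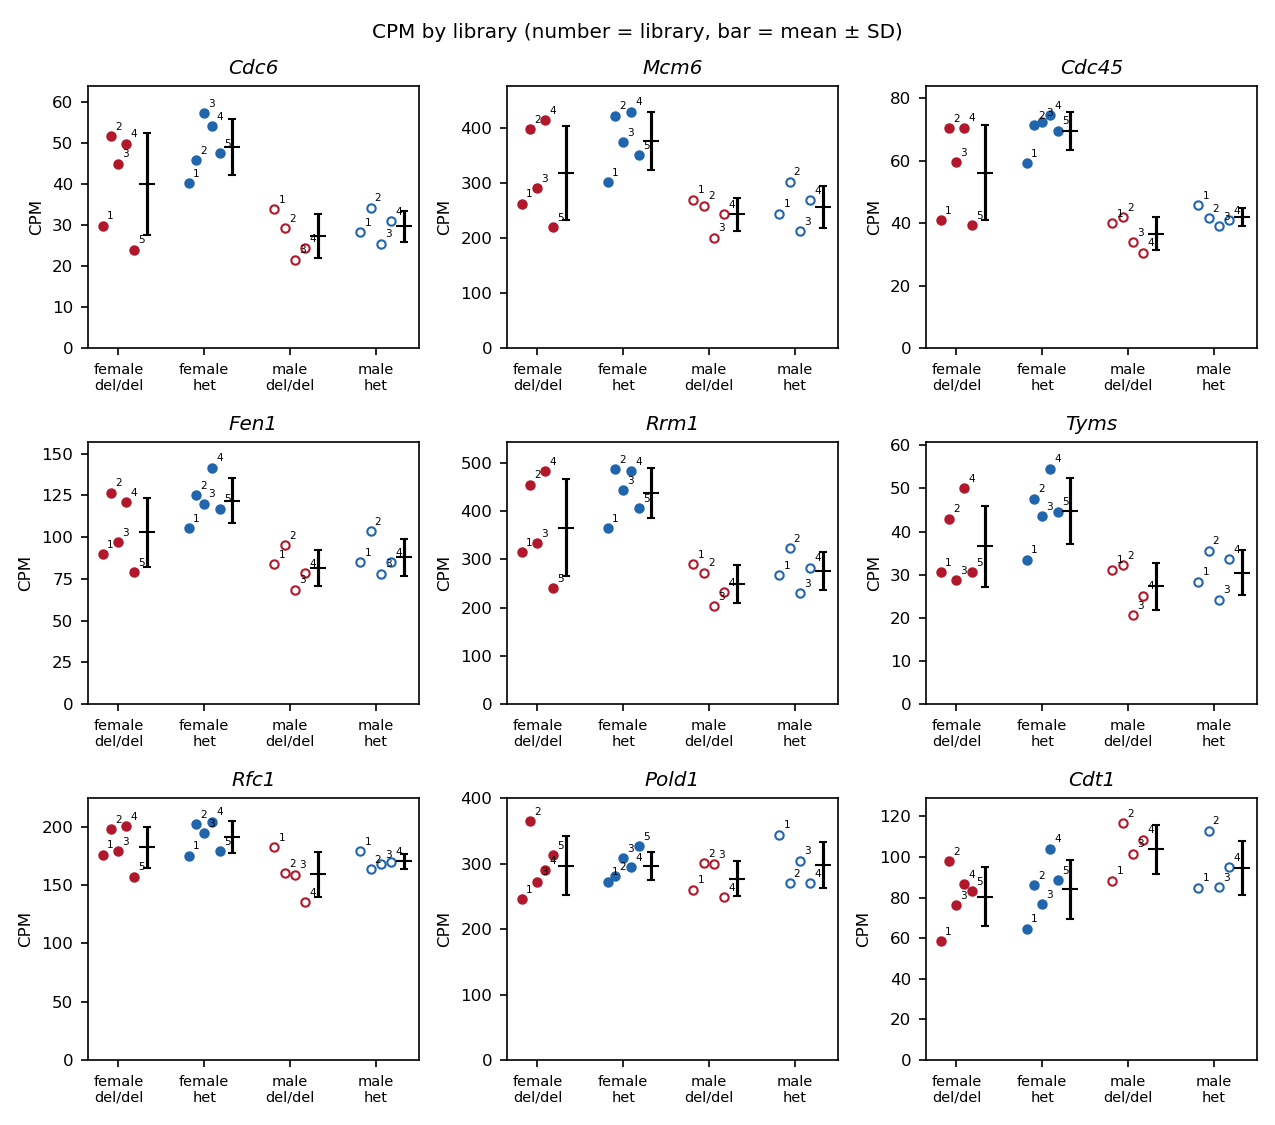
CPM (y axis, from 0) of 9 of the genes in every library (x axis, by sex and genotype; red, del/del; blue, het; filled, female; open, male), with the library number beside each point and a black bar for the mean ± SD. Female del/del libraries 1 and 5 sit low for Cdc6, Mcm6, Cdc45, Fen1 and Rrm1 while libraries 2 and 4 sit with the het libraries, and Pold1 and Cdt1 lack that order.

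Primase and the polymerases start and extend the new strands. Prim1 and Prim2 encode the primase, Pola2 a subunit of polymerase alpha, Pole and Pole2 subunits of polymerase epsilon on the leading strand, and Pold1 and Pold2 subunits of polymerase delta on the lagging strand. Of these 7 genes 6 had negative values in females and 7 in males, with medians of -0.15 and -0.10. Pold1 (ENSMUSG00000038644, chr7:44532746-44548849), the catalytic subunit of polymerase delta, was the most abundant by CPM. Pold1 had 246, 365, 273, 290.0 and 313 CPM in female del/del libraries, against 272, 281, 308, 295 and 327 CPM in female het libraries. It had 260.4, 301, 299 and 249 CPM in male del/del libraries, against 344, 270.0, 305 and 271 CPM in male het libraries. Unlike most of the 43 genes it was not low in female del/del library 5, and its female value was 0.0028 (SE 0.10). Pole2 (ENSMUSG00000020974, chr12:69201779-69228190) had 16.5, 22.6, 19.4, 23.5 and 14.3 CPM in female del/del libraries, against 20.4, 19.4, 24.1, 23.7 and 22.3 CPM in female het libraries. It had 18.4, 14.2, 12.2 and 12.5 CPM in male del/del libraries, against 16.1, 16.8, 11.5 and 18.1 CPM in male het libraries. Its groups overlapped in both sexes, at -0.16 (SE 0.11) over both.

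The clamp PCNA holds polymerases on DNA, and the 5 subunits of replication factor C, Rfc1 to Rfc5, load it. Rfc1 (ENSMUSG00000029191, chr5:65261852-65335670), the large subunit, varied least of the 43 genes over the 10 female libraries, with the highest 1.30 times the lowest. Rfc1 had 176, 198, 179, 200.4 and 157 CPM in female del/del libraries, against 175, 202.7, 195, 205 and 179 CPM in female het libraries. It had 183, 160.1, 159 and 136 CPM in male del/del libraries, against 179, 164, 168 and 170.3 CPM in male het libraries. Its log2 fold change over both sexes was -0.082 (SE 0.058). Rfc4 (ENSMUSG00000022881, chr16:23113943-23127737) had the smallest p of the 6 genes over both sexes. Rfc4 had 45.3, 67.9, 48.1, 70.0 and 37.4 CPM in female del/del libraries, against 47.3, 73.1, 61.1, 71.7 and 63.0 CPM in female het libraries. It had 48.8, 37.8, 32.2 and 34.7 CPM in male del/del libraries, against 45.2, 45.1, 34.1 and 40.9 CPM in male het libraries. For Rfc4, female del/del libraries 1 and 5 lay below every het library, and library 3 lay between het library 1 and the rest. Pcna averaged 173.1 ± 48.6 CPM in female del/del libraries and 193.7 ± 25.3 CPM in female het libraries (SD, n = 5 each), and in males 130 ± 18.8 CPM in del/del and 136 ± 7.88 CPM in het libraries (SD, n = 4 each). Reads of Pcna could also come from the processed copies Pcna-ps1 and Pcna-ps2, and how the counting treated them is not given. Pcna-ps2 has a row of its own in the counts and Pcna-ps1 has none. Rfc5 had opposite signs in the sexes, at -0.24 (SE 0.13) in females and 0.13 (SE 0.081) in males.

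Replication protein A coats single-stranded DNA and has the subunits Rpa1, Rpa2 and Rpa3. All 3 had negative values in both sexes, with a median of -0.19 in females and -0.028 in males. Rpa1 (ENSMUSG00000000751, chr11:75298166-75348324), the large subunit, had 188, 263, 211, 245 and 176 CPM in female del/del libraries, against 206, 262, 239, 275 and 232 CPM in female het libraries. It had 229.7, 194.2, 184 and 209.99 CPM in male del/del libraries, against 196.4, 219.6, 187 and 222 CPM in male het libraries. Rpa3 (ENSMUSG00000012483, chr6:8255936-8259173), the small subunit, had 27.5, 29.7, 25.9, 31.9 and 18.5 CPM in female del/del libraries, against 30.0, 27.6, 31.5, 32.7 and 30.8 CPM in female het libraries. Rpa3 had 23.7, 18.04, 16.5 and 18.4 CPM in male del/del libraries, against 20.7, 20.1, 17.9 and 23.6 CPM in male het libraries. Female del/del library 5 was the lowest of 10 for both genes, and the groups overlapped in each sex.

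Fen1 trims the flaps of Okazaki fragments and Lig1 seals them. Fen1 (ENSMUSG00000024742, chr19:10199132-10204169) had 90.01, 127, 97.2, 121 and 79.0 CPM in female del/del libraries, against 105, 125, 120.0, 142 and 117 CPM in female het libraries. Fen1 had 84.0, 95.1, 68.6 and 78.4 CPM in male del/del libraries, against 84.9, 104, 78.2 and 84.9 CPM in male het libraries. It had the smallest female p of the 43 genes, 0.0798 unadjusted, with a log2 fold change of -0.24 (SE 0.13) in females, -0.11 (SE 0.11) in males and -0.19 (SE 0.090) over both, and an edgeR adjusted p of 0.740 over both. Exons of the opposite-strand gene Gm10143 cover 78.8% of the exonic length of Fen1, so its count is uncertain without the strand setting. Lig1 (ENSMUSG00000056394, chr7:13277283-13311433) had 145, 275, 181, 249.9 and 127 CPM in female del/del libraries, against 176, 250.2, 231, 266 and 221 CPM in female het libraries. Lig1 had 144, 151, 114 and 118 CPM in male del/del libraries, against 133, 167.3, 120.2 and 141 CPM in male het libraries. Its highest female library was 2.17 times its lowest, with del/del library 2 highest and del/del library 5 lowest, so the extremes of Lig1 both lay among del/del animals.

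Nucleotide supply gave the lowest role median over both sexes, -0.21, with 5 of 5 negative in females and 4 of 5 in males. Rrm1 and Rrm2 encode the subunits of ribonucleotide reductase, Tyms and Tk1 make thymidine nucleotides, and Dut removes dUTP. Rrm2, the subunit that is made in S phase, had the highest level per kb of exonic length of the 43 genes. It was at 113 CPM per kb in female del/del libraries and 134 CPM per kb in female het libraries. In males it was at 64.9 CPM per kb in del/del and 72.3 CPM per kb in het libraries. That rank depends on the lengths, 2771 bases for Rrm2 and 11012 bases for Rrm1. By CPM alone, female del/del means were 313 for Rrm2 and 366 for Rrm1. Rrm1 (ENSMUSG00000030978, chr7:102441695-102469771) had 316, 455, 335, 483 and 241 CPM in female del/del libraries, against 365, 488, 444, 483 and 406 CPM in female het libraries. Rrm1 had 290.4, 273, 202.5 and 233 CPM in male del/del libraries, against 268, 324, 230.2 and 283 CPM in male het libraries. Here too female del/del libraries 1, 3 and 5 lay below every female het library. Tyms (ENSMUSG00000025747, chr5:30058202-30073617) had 30.7, 43.0, 28.8, 50.03 and 30.7 CPM in female del/del libraries, against 33.5, 47.6, 43.6, 54.6 and 44.6 CPM in female het libraries. Tyms had 31.2, 32.3, 20.7 and 25.2 CPM in male del/del libraries, against 28.4, 35.6, 24.2 and 33.6 CPM in male het libraries. Its value was -0.23 (SE 0.12) over both sexes, with an edgeR adjusted p of 0.784. Tyms also has a named pseudogene, Tyms-ps, without a row in the counts, and how its reads were treated is not given. Tk1 was at -0.12 (SE 0.11) in females and 0.057 (SE 0.12) in males.

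Chaf1a and Chaf1b, subunits of the complex that places histones on new DNA, had log2 fold changes of -0.20 and -0.23 in females and -0.11 and -0.092 in males. Chaf1a (ENSMUSG00000002835, chr17:56040416-56068026) had 58.9, 107, 73.2, 98.4 and 55.1 CPM in female del/del libraries, against 69.1, 101, 94.9, 99.9 and 86.5 CPM in female het libraries. Chaf1a had 55.8, 59.3, 44.5 and 45.0 CPM in male del/del libraries, against 59.8, 62.3, 50.4 and 48.6 CPM in male het libraries. Exons of the opposite-strand gene Ubxn6 cover 52.5% of its exonic length. Cyclin E drives entry into S phase. Ccne2 (ENSMUSG00000028212, chr4:11191351-11204779) had 59.5, 54.4, 55.5, 64.4 and 31.5 CPM in female del/del libraries, against 56.6, 57.1, 74.5, 49.1 and 62.7 CPM in female het libraries. Ccne2 had 41.5, 35.5, 24.2 and 29.7 CPM in male del/del libraries, against 41.9, 39.6, 32.4 and 37.6 CPM in male het libraries. Female del/del library 5 and male del/del library 3 were the lowest of their sex, and the other female del/del libraries lay within the het range. Its log2 fold change was -0.21 (SE 0.15) in males, the most negative male value of the 43, and Ccne1 was at -0.22 (SE 0.16) in females and -0.025 (SE 0.080) in males. Opposite-strand exons also cover 10% or more of Ccne2, Orc1, Rfc2, Rfc4 and Rfc5.

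**Figure D3:**
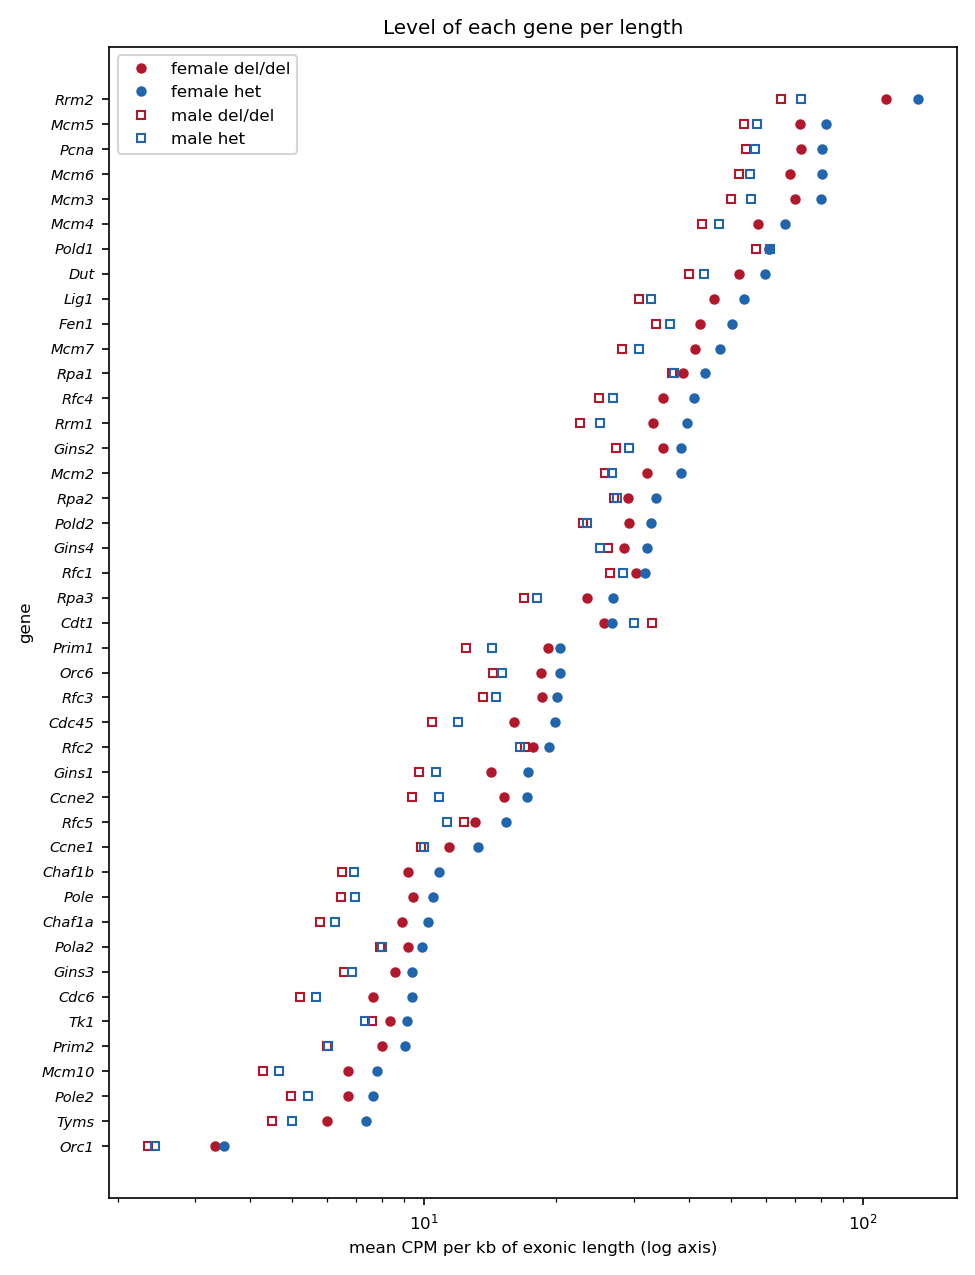
Mean CPM per kb of exonic length (x axis, log scale) of the 43 genes (y axis, ordered by level) in female del/del (filled red), female het (filled blue), male del/del (open red) and male het (open blue) libraries. Exonic length is the union of all annotated exons of a gene, so the order of genes depends on it. Rrm2 is the highest at 113 CPM per kb in female del/del libraries and Orc1 the lowest at 3.33; the tables of the sexes were scaled apart, so the distance between female and male points is not a test of sex.

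The order of libraries was shared by most of the genes. The mean log2 CPM of the 43 genes was 6.11, 6.68, 6.26, 6.64 and 5.96 in female del/del libraries 1 to 5, against 6.30, 6.59, 6.60, 6.67 and 6.54 in female het libraries 1 to 5. It was 6.14, 6.07, 5.80 and 5.87 in male del/del libraries 1 to 4, against 6.04, 6.19, 5.92 and 6.05 in male het libraries 1 to 4. Female del/del libraries 1, 3 and 5 and male del/del libraries 3 and 4 were below every het library of their sex, and female del/del library 2 was above every female het library, so the genotypes overlapped. As a group mean this was 6.33 ± 0.32 in female del/del and 6.54 ± 0.14 in female het libraries (SD, n = 5 each), and 5.97 ± 0.16 in male del/del and 6.05 ± 0.11 in male het libraries (SD, n = 4 each). The share of all counts that fell on the 43 genes was 0.420%, 0.629%, 0.476%, 0.600% and 0.387% in female del/del libraries, against 0.478%, 0.603%, 0.588%, 0.617% and 0.570% in female het libraries. In males it was 0.433%, 0.416%, 0.347% and 0.357% in del/del libraries, against 0.405%, 0.459%, 0.372% and 0.405% in het libraries.

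**Figure D4:**
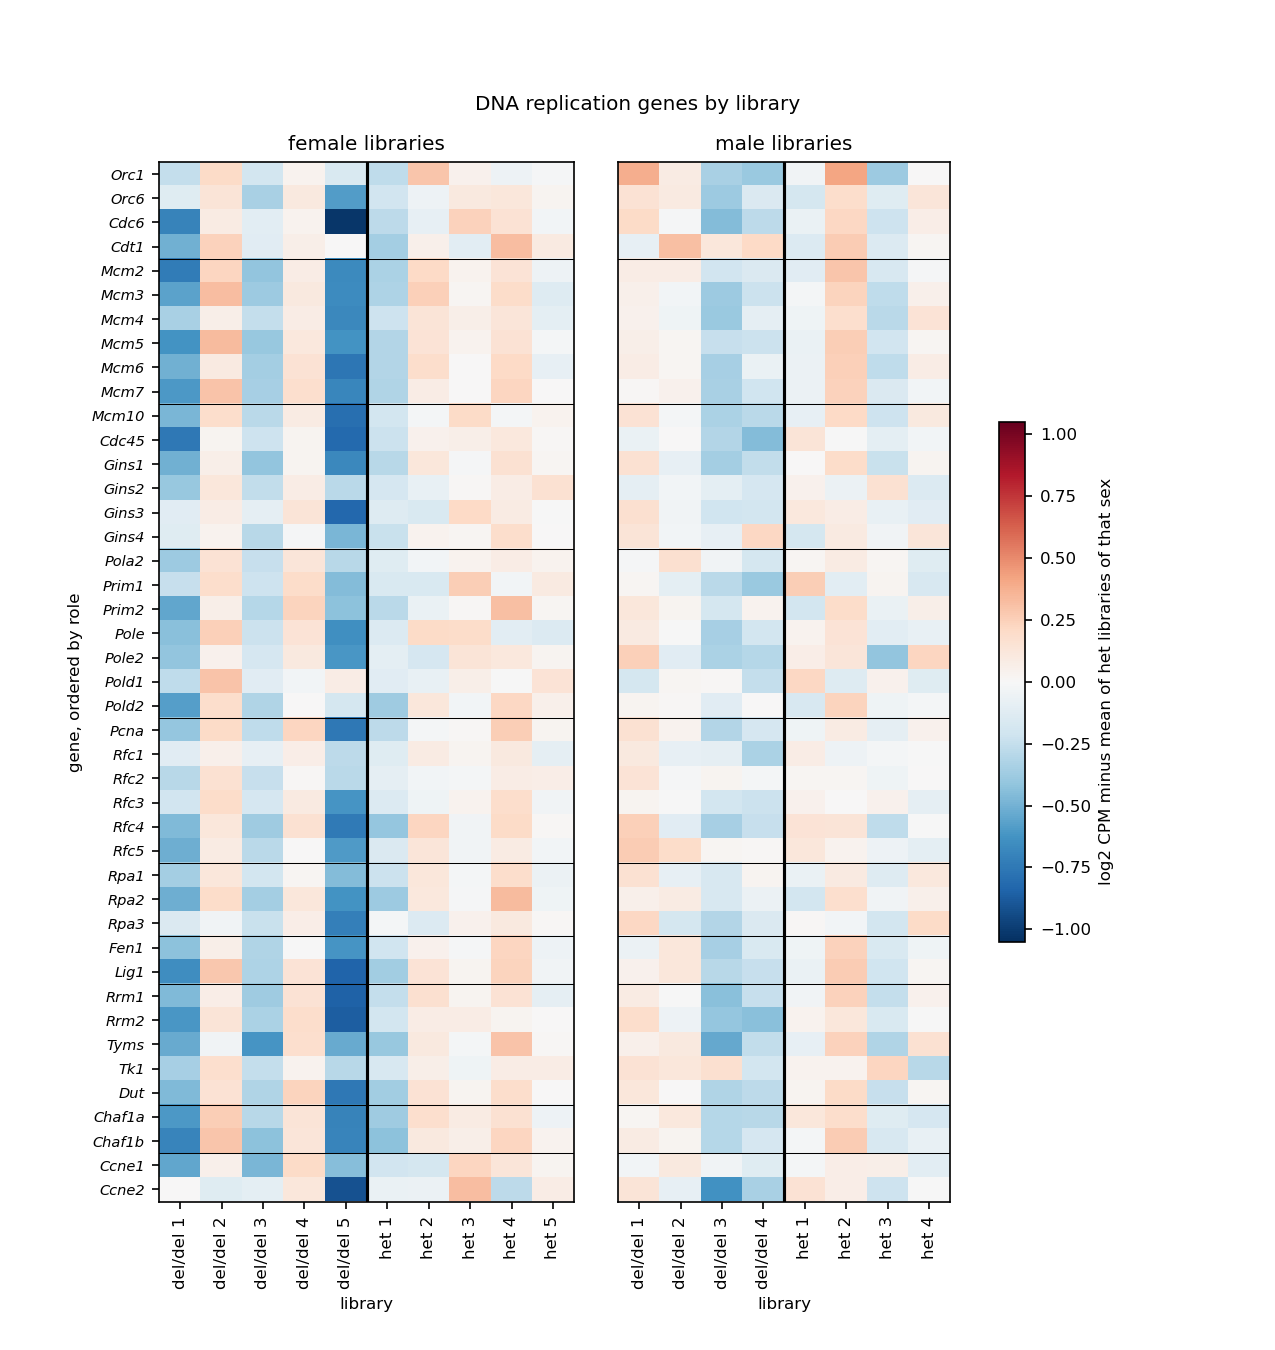
Log2 CPM of each of the 43 genes (rows, grouped by role) in each library (columns), minus the mean of the het libraries of that sex; blue is below the het mean and red above. Female del/del columns 1, 3 and 5 are blue from top to bottom with few exceptions and columns 2 and 4 are pale or red; among males, del/del columns 3 and 4 are mostly blue.

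Gene by gene, no member of the set separated the genotypes. In females 0 of 43 had every del/del library below every het library, against 0.222% of genes tested, and 0 had every del/del library above, against 0.830%. In males the counts were 0 against 0.529% and 0 against 1.44%. With shares so low over all genes, a count of 0 among 43 does not set these genes apart. The del/del animals of a sex divided. These genes move together from library to library, so the counts by library here and below are not separate observations. Female del/del library 5 was below every female het library for 39 of the 43 genes, against 28.0% of all genes, and above every one for 0, against 28.4%. Female del/del library 1 was below all het libraries for 37, against 23.6%, and above for 0, against 20.7%. Female del/del library 3 was below for 26, against 19.5%, and above for 0, against 17.8%. The other female del/del animals did not show this. Library 2 was below all het libraries for 0, against 18.8%, and above for 15, against 18%. Library 4 was below for 0, against 15.0%, and above for 3, against 15.3%. The median difference from the het mean over the 43 genes was -0.46, 0.14, -0.28, 0.10 and -0.63 in female del/del libraries 1 to 5, and female het library 1 was itself at -0.23. Cdc6 in female del/del library 5 lay farthest from the het mean, at -1.02.

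Extremes over all female libraries also fell on a few animals. Del/del library 5 was the lowest of 10 for 30 of the 43 genes, against 21.5% of all genes, and del/del library 1 for 11, against 12.1%. Del/del library 2 was the highest of 10 for 14 genes, against 12.0%, and het library 4 for 14, against 16.7%. In males, del/del library 3 was below every het library for 29 genes, against 23.4%, and above for 1, against 25.1%. Male del/del library 4 was below for 23, against 18.1%, and above for 1, against 19.5%. Male del/del libraries 1 and 2 lay with the het libraries: library 1 was below for 1, against 16.6%, and above for 11, against 17.6%, and library 2 was below for 1, against 13.1%, and above for 4, against 13.4%. Del/del library 3 was the lowest of 8 for 24 genes, against 17.6%, and del/del library 4 for 10, against 10.2%. Het library 2 was the highest of 8 for 22 genes, against 15.0%, and del/del library 1 for 10, against 10.8%.

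The replication genes were also more spread among del/del than among het animals in females. The SD of log2 CPM was larger in del/del libraries for 42 of the 43 genes, against 62.9% of all genes, with a median SD over the 43 genes of 0.34 in del/del libraries and 0.18 in het libraries. Over all genes the medians were 0.23 in female del/del and 0.19 in female het libraries. In males the SD was larger in del/del libraries for 27 of 43, against 47.5%, with medians of 0.19 in del/del and 0.17 in het libraries. No test was made of these differences in spread. Because these genes move together, the counts of genes with a larger SD are not separate observations. Over all female libraries Cdc6 varied most, with the highest library 2.39 times the lowest; among males Orc1 varied most, at 1.74 times, and Rfc2 least, at 1.14 times.

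Other genes of the same processes were read from lists of their own. Of 40 further replication genes (such as Pold3, a polymerase delta subunit, and Dna2, a nuclease), 36 had negative values in females and 30 in males, with medians of -0.16 and -0.060, and 0 were called. Of 25 genes that control entry into S phase, 19 were negative in each sex, with Tfdp2, an E2F partner, at -0.29 (SE 0.12) in females and -0.25 (SE 0.10) in males, and 0 were called. Of 19 genes of the S phase checkpoint, 18 were negative in females and 12 in males, with the nuclease gene Exo1 at -0.41 (SE 0.16) and -0.22 (SE 0.14), and 0 were called. All 30 genes of mitosis had negative values in both sexes, with medians of -0.22 in females and -0.13 in males, and 0 were called. The mean log2 CPM of the mitosis genes was 6.59, 7.26, 6.85, 7.27 and 6.33 in female del/del libraries 1 to 5, against 6.94, 7.24, 7.22, 7.13 and 7.09 in female het libraries. The low ones for mitosis genes were thus female del/del libraries 1, 3 and 5 as well. The edgeR adjusted p of every gene in these 4 lists was above 0.05 in each comparison.

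Markers of other cells and stages differed between the same libraries. Of 20 markers of plasmacytoid dendritic cells, 20 had positive log2 fold changes in females and 18 in males, with medians of 0.41 and 0.37. Their mean log2 CPM was 7.01, 6.39, 7.16, 6.26 and 7.24 in female del/del libraries 1 to 5, against 6.78, 6.62, 6.10, 6.45 and 6.35 in female het libraries, so among females it was highest in the 3 del/del libraries in which the replication genes were low. In males it was 6.17, 6.15, 6.29 and 5.73 in del/del libraries 1 to 4, against 5.89, 5.65, 5.78 and 5.80 in het libraries 1 to 4. The order of females was not shared by males: del/del library 4, low for replication genes, lay within the het range, while del/del library 1, the highest male del/del library for replication genes, lay above it. Summed over the list this was 4461 to 6152 CPM in female del/del and 4149 to 5627 CPM in female het libraries, and 3795 to 4240 CPM in male del/del and 3656 to 4287 CPM in male het libraries. The 1 marker called was Il3ra, which rose over both sexes (log2 fold change 0.55, SE 0.083, edgeR adjusted p 0.00111). Siglech, a defining marker, was detected in every library, at 61.3 CPM or more. Of 17 markers of mature B cells, 17 were positive in females and 15 in males. Their level was 8.19, 7.44, 8.25, 7.72 and 8.76 in female del/del libraries 1 to 5, with a female het range of 7.70 to 8.20. Female del/del libraries 3 and 5 lay above every female het library and library 2 below every one. Female del/del libraries 1 and 4 lay within the het range. In males the level was 8.82 to 9.14 in del/del and 8.86 to 9.10 in het libraries. Of 15 tested markers of neutrophils and monocytes, 10 were positive in females and 15 in males, with medians of 0.17 and 0.25 and 0 called. Their level was 5.36, 4.80, 6.59, 5.46 and 6.86 in female del/del libraries 1 to 5, with a female het range of 5.43 to 6.46, and 6.38, 5.68, 7.27 and 5.99 in male del/del libraries 1 to 4, with a male het range of 5.60 to 6.40. Female del/del libraries 3 and 5 and male del/del library 3, which were low for replication genes, thus lay above every het library of their sex, whereas female del/del library 1 and male del/del library 4 did not. The part of these cells in the replication result was not tested. Of 17 markers of pro-B and pre-B cells, 17 were negative in each sex, with medians of -0.13 in females and -0.29 in males. Their level was 8.01, 8.14, 7.78, 8.37 and 7.64 in female del/del libraries 1 to 5, with a female het range of 7.82 to 8.26. In males it was 7.57, 7.47, 7.07 and 7.18 in del/del libraries 1 to 4, with a het range of 7.40 to 7.82. Female del/del libraries 3 and 5 and male del/del libraries 3 and 4, low for replication genes, lay below every het library of their sex. Female del/del library 1, also low for replication genes, lay within the female het range, and library 4 lay above it. The part of cell stage was not tested. Of 15 erythroid markers, 14 were negative in each sex, and summed they gave 578 to 1051 CPM in female del/del and 721 to 1172 CPM in female het libraries. Malat1, a nuclear RNA, had 1423, 948, 1912, 1248 and 1876 CPM in female del/del libraries, against 1526, 826, 1233, 785 and 1061 CPM in female het libraries.

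**Figure D5:**
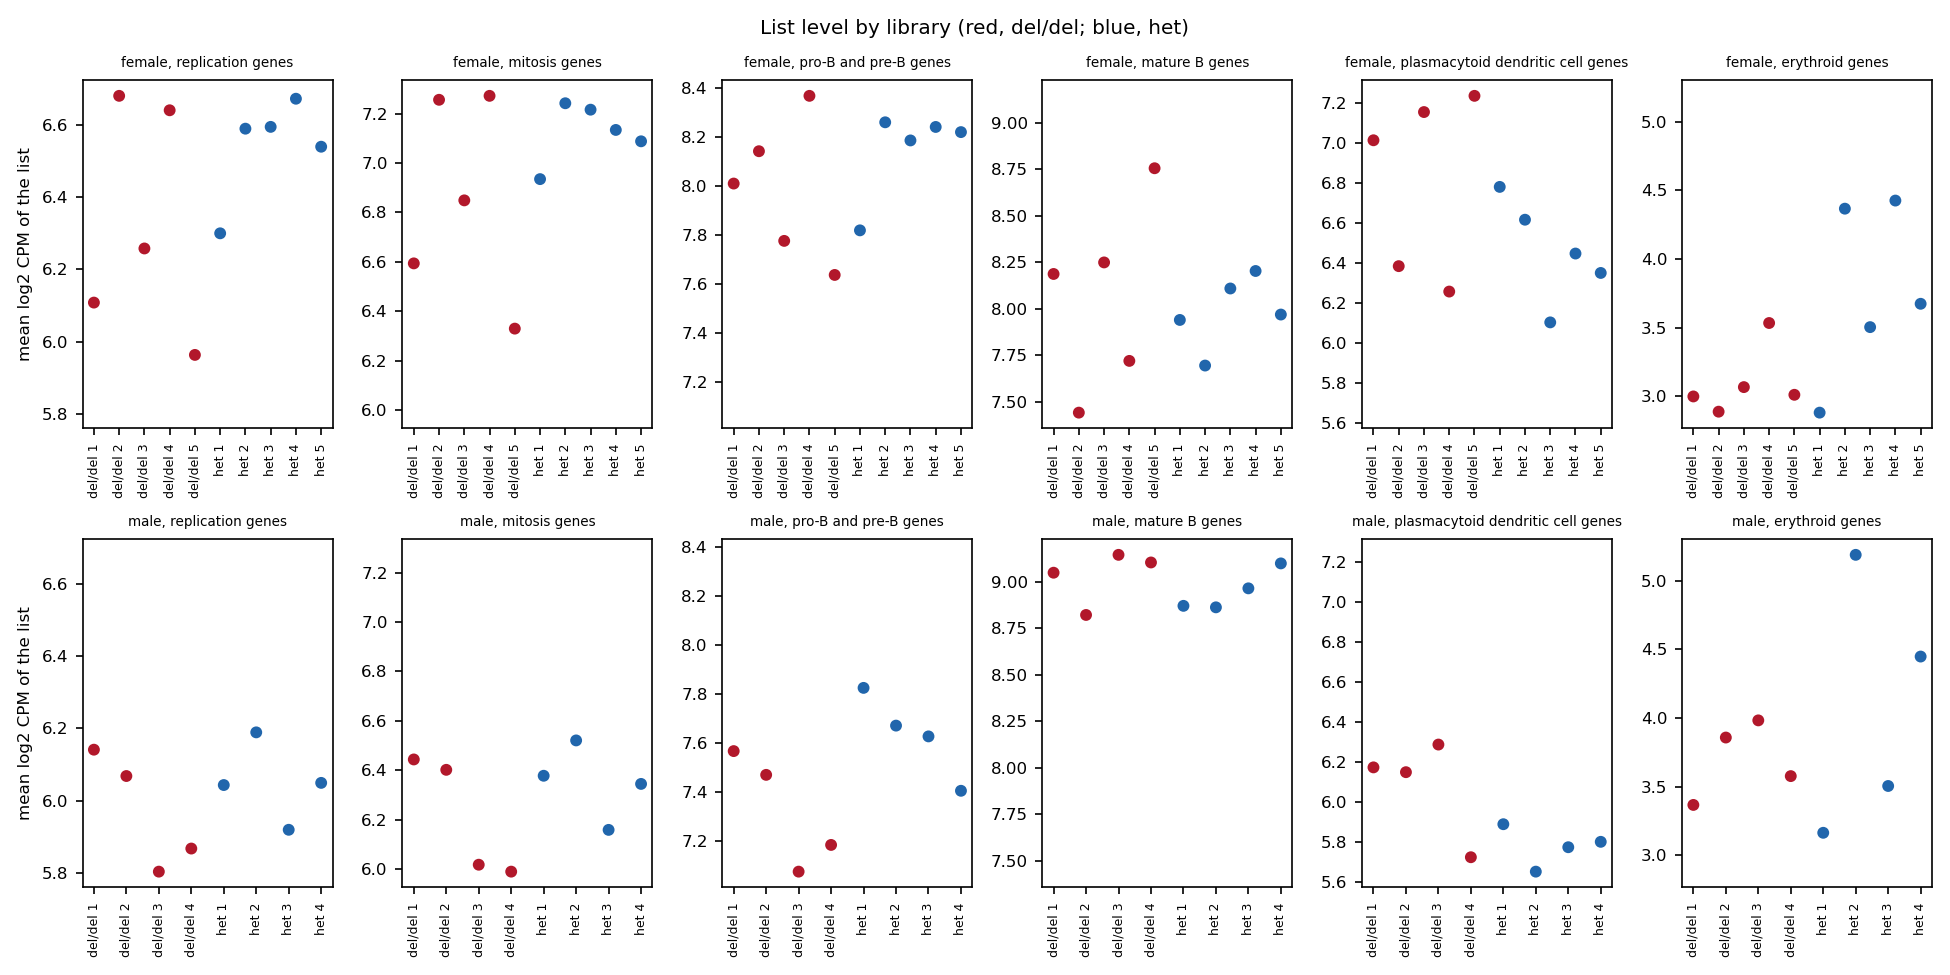
Mean log2 CPM (y axis, shared within a column) of the 43 replication genes and of 5 marker lists (columns) in each library (x axis; red, del/del; blue, het) of females (top) and males (bottom). Female del/del libraries 1, 3 and 5 are low for replication and mitosis genes and high for plasmacytoid dendritic cell genes, at 7.01, 7.16 and 7.24.

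With these levels as covariates the female result moved. The median log2 fold change of the 43 genes in females was 0.013 with Malat1 as a covariate (18 of 43 negative), 0.0048 with the plasmacytoid dendritic cell level (21 negative) and -0.029 with the erythroid level (26 negative), against -0.19 without a covariate. Over both sexes it was 0.018 with the plasmacytoid dendritic cell level (15 negative), against -0.15 without. In males the same medians were -0.077, -0.11 and -0.067, against -0.098 without. Each covariate was itself measured in these libraries and may follow genotype. The adjusted values are thus no estimate of the effect of genotype at a fixed cell mixture. Malat1 itself had a log2 fold change of 0.45 in females (SE 0.22, edgeR adjusted p 0.975). In males its value was 0.070 (SE 0.29, edgeR adjusted p 0.9998). In the fit over both sexes Malat1 had a log2 fold change of 0.28 (SE 0.19, edgeR adjusted p 0.812). That fit called 1 of 20 plasmacytoid dendritic cell markers and 0 of 15 erythroid markers. No gene of the 43 was called with any of the 3 covariates.

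The effects of genotype in the sexes were compared directly in a fit with an interaction term, the female effect minus the male effect. It called 0 of the 43 genes, against 0% of 14017 genes. In it 38 of 43 values were negative, against 46.4%, with a median of -0.084. The 1 gene with an unadjusted p under 0.05, against 1.45%, was Rfc5, which encodes a clamp loader subunit, at -0.35 (SE 0.17). Its unadjusted p in edgeR's quasi-likelihood test was 0.0499 and its adjusted p 0.9999. Rfc5 had 50.1, 76.0, 58.9, 71.8 and 47.4 CPM in female del/del libraries, against 64.4, 78.3, 69.7, 76.0 and 70.0 CPM in female het libraries. It had 63.1, 60.0, 53.3 and 53.1 CPM in male del/del libraries, against 56.9, 54.0, 50.7 and 48.8 CPM in male het libraries. The groups overlapped in both sexes. Without female del/del library 5 the interaction median was 0.0092, with 19 of 43 negative.

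In the authors' deposited table of genotype differences all 43 genes have a row for each sex, and 0 have an adjusted p under 0.05. Of the log2 fold changes in the authors' deposited table, 42 are negative for females, from -0.29 (Cdc45) to 0.017 (Pold1), and 38 for males, from -0.20 to 0.13. The medians in the authors' deposited table are -0.18 for females and -0.094 for males.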

How the data were processed

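RNA was sequenced from sorted bone marrow B cells of 18 mice. The deposited tables, female and male apart, hold raw counts of reads by gene. The submitters' processing notes name TopHat, Trim Galore, FastQC, bcl2fastq and edgeR 3.32.1 with mouse build GRCm38. How reads were counted, on which annotation and with what strand setting is not given in the sources used here. The 4 columns of group means were not used, and 56 rows without an identifier stayed in the fits because they carry a symbol. Their own comparisons give, per the file headers, a log2 fold change, an F score, a p-value and its adjusted value; what is quoted from them is named as the authors' deposited table.

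Counts were tested in R 4.3.3 with edgeR 4.0.16 (filterByExpr with minimum count 10 and minimum total count 15, TMM, glmQLFit and glmQLFTest), for each sex, over both sexes with sex as a covariate, and with a sex by genotype interaction. Calls were made at an adjusted p under 0.05 (Benjamini-Hochberg over all genes of the fit). SE values are the log2 fold change divided by the square root of F. Log2 CPM used a prior count of 0.5. Exonic lengths, the union of all annotated exons of a gene, and overlaps came from GENCODE annotation. The pipeline was tested on simulated counts. Alternatives were DESeq2 1.42.0, limma voom (3.58.1), DESeq2 size factors, no filter, a block, covariates, all 18 libraries in one fit and leaving out each library (54 fits). The 43 genes, their 10 roles and the other lists were chosen with earlier results of these data known, so no p is given over a list. Values per library are given for Smchd1, for each role's gene of the highest mean CPM and its gene of the smallest p over both sexes, and for any gene called or separating the genotypes; Rfc5, Malat1 and the single cell type markers were added after their values were seen. Where the interval of a value is given it spans 2 SE on each side. Total counts limit the precision of low genes; the lowest count of any of the 43 genes in a library was 79.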

Additional observations from a re-analysis of the deposited data

Results flagged for a closer look

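The Smchd1 level of female del/del library 4 stood apart from the other 4 female del/del libraries. It was 173.5 CPM, and its gap to the nearest of them was 0.729 of the range of the group. All 5 female del/del libraries remained below the lowest female het library, at 235 CPM. Among the 43 replication genes 1 had such a library: Tk1, which makes thymidine nucleotides, stood at 33.06 CPM in male del/del library 4, and its gap to the nearest of the other 3 male del/del libraries was 0.852 of the range of the group. These were 2 of 180 such checks, over the 43 genes, Smchd1 and the mean level of the 43 genes in the 4 groups, and chance flags about 1 in 20 groups. The interaction of sex and genotype called 0 of the 43 genes.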

How the results depend on the processing

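No setting called any of the 43 genes, in the 26 alternatives over both sexes, 22 of the interaction, 19 of females and 17 of males. The median female log2 fold change was reversed at 0.013 with Malat1 and 0.0048 with the plasmacytoid dendritic cell level as a covariate, with 18 and 21 genes negative, and was -0.029 with 26 negative with the erythroid level; the median over both sexes was reversed at 0.018, with 15 negative, with the plasmacytoid dendritic cell level. That covariate also reversed Mcm6 (0.012), Rpa1 (0.018), Lig1 (0.039) and Chaf1a (0.023) over both sexes. Leaving out 1 library gave medians of -0.27 (without female del/del library 2) to -0.10 (without library 5) in females, -0.16 to -0.032 in males, -0.19 to -0.10 over both sexes and -0.19 to 0.0092 in the interaction, the last without female del/del library 5, with 19 to 41 genes negative. In females 41 to 43 genes, in males 28 to 39 and over both 42 to 43 remained negative by count. Cdt1 over both sexes (0.026) was at -0.014 to 0.091 when 1 library was left out, negative without any 1 of 5 libraries (-0.014, -0.011, -0.010, -0.00098 and -0.00044), and at 0.15, 0.13 and 0.18 with the Malat1, plasmacytoid dendritic cell and erythroid covariates. Over all genes DESeq2 called 92 in females, 49 in males, 141 over both sexes and 4 in the interaction, against 34, 16, 78 and 0; the erythroid covariate called 16 and the fit of all 18 libraries 58 in females, the plasmacytoid dendritic cell covariate called 5 in males, and leaving out a library called 26 to 41, 5 to 22, 57 to 115 and 0. Smchd1 in males lost its call with the plasmacytoid dendritic cell covariate (-0.65, edgeR adjusted p 0.163) and without het library 1, del/del library 1 or del/del library 3. The causes were not tested.

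The labels state no pairs. A replicate block of the nearest animal numbers called 0 of the 43 genes (17, 5 and 18 with an unadjusted p under 0.05), with medians of -0.23 in females, -0.098 in males and -0.17 over both sexes, edgeR adjusted p of 0.578, 0.685 and 0.177 (Fen1) at the smallest, and 23, 13 and 88 genes called over all. Deviations of paired libraries correlated at -0.038 to 0.25 in females and 0.10 to 0.31 in males. Other combinations of libraries were not compared, so whether the nearest numbers mark pairs was not tested. With 5 and 4 animals a group, the median SE of the 43 genes was 0.156 in females and 0.114 in males without the block. With the block it was 0.107 in females and 0.0733 in males.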

Other observations

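With all 18 libraries scaled together, the mean log2 CPM of the 43 replication genes was 6.32 ± 0.31 in female del/del libraries and 6.53 ± 0.14 in female het libraries (SD, n = 5 each). On that scale it was 5.98 ± 0.16 in male del/del libraries and 6.07 ± 0.11 in male het libraries (SD, n = 4 each). Female het libraries averaged above male het libraries for 41 of the 43 genes, with Cdt1 and Pold1 the exceptions, and the median female minus male difference was 0.48. Over all 14017 genes of that fit 48.8% were higher in female het libraries, with a median difference of -0.0093. The libraries of the sexes were deposited as separate tables, so sex and any difference between the tables cannot be told apart, and no test was made.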
